A study of Mus musculus with 4 samples.

Results

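A set of 8 genes for the enzymes and receptors of extracellular ATP, NAD and adenosine was followed in double-negative regulatory T cells (DNT) of the mouse, which carry an αβ T cell receptor but neither CD4 nor CD8. The genes are Entpd1, Nt5e, Cd38, Art2b, P2rx7, Adora2a, Ada and Dpp4. They were taken by name from the 35275 Ensembl IDs of the deposited table, and all 8 were found there and passed the filter of a mean of at least 1 RPKM. RPKM is a read count normalised to transcript length and to the sequencing total of its library. There were 2 libraries from C57BL/6 wild-type cells (wild-type 1 and 2) and 2 from OX40-knockout cells on the same strain (OX40-knockout 1 and 2). OX40, encoded by Tnfrsf4, is a costimulatory receptor of activated T cells. All 4 samples were converted in culture from naive CD4 T cells by a published protocol and sorted as CD3+ TCRαβ+ cells without CD4, CD8 or NK markers, per the labels' protocols. The labels give no knockout allele, age, sex or treatment. They also do not tell whether replicates are separate animals or cultures, so the p-values reflect only how far these libraries vary, and that variation can be technical.

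Cells release ATP and NAD when they are activated, stressed or damaged. CD39, the product of Entpd1, cuts ATP and ADP to AMP, and CD73, the product of Nt5e, cuts AMP to adenosine, which dampens T cells through the receptor encoded by Adora2a and cyclic AMP. Adenosine deaminase (Ada) removes adenosine by turning it into inosine. NAD is consumed on the other branch by CD38 and by the ADP-ribosyltransferase of Art2b, which can attach ADP-ribose to the ATP-gated channel of P2rx7 and open it. Dpp4 encodes CD26, a surface peptidase of T cells known in human cells as an anchor for adenosine deaminase.

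RefSeq windows of the 250 bases before annotated start sites (build GRCm38.p6) were read for 7 of the 8 genes, in 9 windows, matched by symbol (all but Adora2a). Those of P2rx7 and Dpp4 are shown because these were the members that stood higher in both replicate 1 libraries than in both replicate 2 libraries. The P2rx7 windows are chr5:122643677-122643926 and chr5:122650133-122650382 on the plus strand, and the Dpp4 window is chr2:62412232-62412481 on the minus strand. Each runs 5′ to 3′ along the gene, and capitals mark the motif TGANTCA of the AP-1 family, searched on both strands.
P2rx7, first start site: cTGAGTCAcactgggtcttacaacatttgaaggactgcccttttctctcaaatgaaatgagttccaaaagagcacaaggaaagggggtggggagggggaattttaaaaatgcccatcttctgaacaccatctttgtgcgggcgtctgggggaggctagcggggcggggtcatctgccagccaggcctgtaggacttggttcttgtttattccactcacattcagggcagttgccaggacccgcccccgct
P2rx7, second start site: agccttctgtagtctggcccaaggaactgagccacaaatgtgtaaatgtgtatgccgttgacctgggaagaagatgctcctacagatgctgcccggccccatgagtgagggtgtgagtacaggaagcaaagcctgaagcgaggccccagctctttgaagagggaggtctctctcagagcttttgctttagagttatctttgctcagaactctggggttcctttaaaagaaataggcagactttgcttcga
Dpp4: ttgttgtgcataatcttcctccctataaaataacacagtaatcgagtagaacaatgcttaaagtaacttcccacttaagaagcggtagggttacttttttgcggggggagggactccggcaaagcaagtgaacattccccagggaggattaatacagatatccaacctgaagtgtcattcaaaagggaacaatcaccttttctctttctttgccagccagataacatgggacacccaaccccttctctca
The first P2rx7 window held 1 match (TGAGTCA), starting 249 bases before the start site, while its second window and that of Dpp4 held none. Art2b held 1 match too, starting 104 bases before its start site. Over all 32851 windows of this length 6.75% held the motif, and 2 of the 9 member windows did. Searches for TGACGTCA (the cyclic AMP response element) and AGGTGTGA (T-box factors) found no match in the 9 windows, against 1.55% and 1.12% of all windows. TGTGGT (RUNX factors) was met in 1 of 9, in Art2b, against 14.05% of all windows. A match describes letters in these windows and is no evidence of binding.

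The libraries were of like depth, at 22220888 to 24395743 reads each, as read from the steps between low RPKM values. OX40-knockout 1 stood apart from the rest on the first principal component of log2(RPKM + 1), which held 71% of the variance, at 34.18 against -0.06 for wild-type 1, -16.04 for wild-type 2 and -18.07 for OX40-knockout 2. Reads of any 2 libraries, also within a group, differed beyond sampling noise (chi-square per degree of freedom 12.6 or more). Tnfrsf4 was read at 18.2 and 12.3 RPKM in wild-type cells against 12.1 and 9.38 RPKM in cells labelled OX40-knockout. Its log2 change of -0.46 did not pass (limma adjusted p = 0.975), and with the removed part of the gene not named in the labels, a value over the whole gene checks them little. The 7 T cell markers summed to between 1294 and 1752 RPKM in the 4 libraries, with Cd3g alone between 575 and 769 RPKM. Trac, the only gene of an αβ receptor chain among them, was between 159 and 279 RPKM. Cd5 was at 3.27 and 2.50 RPKM in wild-type cells against 8.05 and 1.71 RPKM in knockout cells. Of the regulatory T cell list, Foxp3 was between 0.093 and 0.144 RPKM, Ikzf2 between 69.8 and 92.9 RPKM and Lrrc32 between 25.8 and 40.0 RPKM. Pf4, of the erythroid and platelet list, was between 0.51 and 8.81 RPKM. All 5 B cell markers, cells known for CD38 and CD39, stayed under 1 RPKM in every library, with Ms4a1 and Pax5 at 0. The 8 myeloid and dendritic markers summed to 5.53 and 13.98 RPKM in wild-type cells against 4.18 and 10.87 RPKM in knockout cells, higher in replicate 2. Among markers that the sort was to leave out, Cd8a was between 9.03 and 16.6 RPKM. Klrb1c, of the NK cell list, was between 42.8 and 160 RPKM. Of 5 stromal and epithelial markers, 4 stayed under 1 RPKM in every library, and Epcam was between 10.7 and 18.5 RPKM.

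The ATP-cutting enzyme gene Entpd1 was the most abundant of the set by RPKM and Art2b the least. Entpd1 averaged 199 RPKM, above 95.8% of the 11625 genes tested, and Art2b averaged 7.43 RPKM, above 31.1%. In descending order of the 4-library mean the genes were Entpd1, P2rx7 (68.1 RPKM), Dpp4 (64.0), Cd38 (20.03), Nt5e (19.5), Ada (14.03), Adora2a (11.0) and Art2b. The lowest Entpd1 library lay above the highest P2rx7 library, and the lowest Dpp4 library above the highest Cd38 library. P2rx7 and Dpp4 overlapped over the 4 libraries, as did Cd38 and Nt5e, Ada and Adora2a, and Adora2a and Art2b, so the order within these pairs was not beyond their spread.

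**Figure D1:**
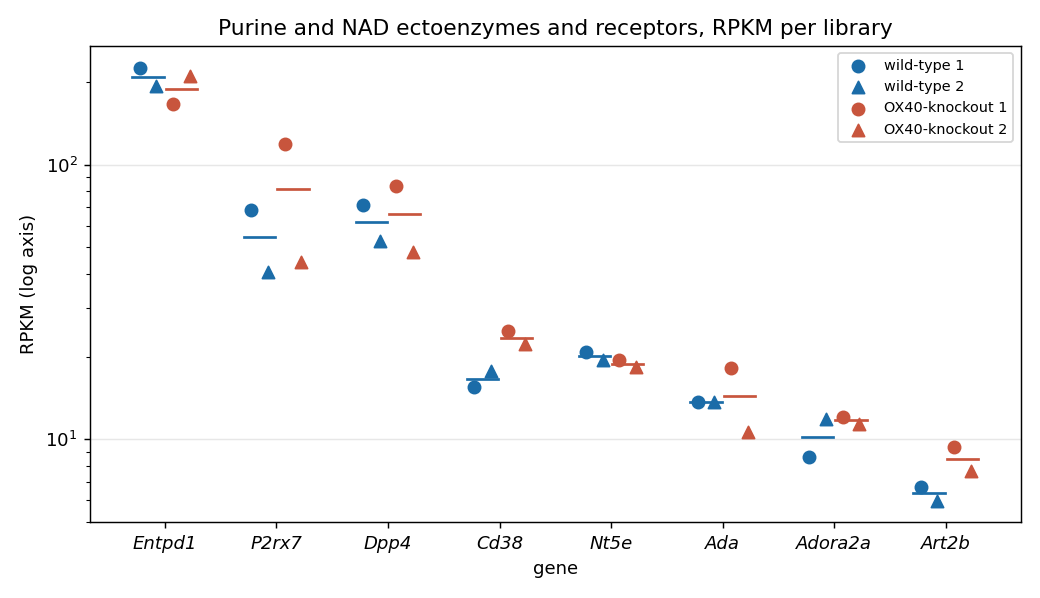
RPKM on a log axis of the 8 genes in each of the 4 libraries, ordered by their mean, each point being 1 library and each bar the mean of a genotype (n = 2). Entpd1 sits between 167 and 226 RPKM, P2rx7 is spread from 40.8 to 119 RPKM, and both knockout points of Cd38 and of Art2b lie above both wild-type points.

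That order depended on the transcript length behind the values. The deposited values fitted whole reads at 1059 bases for Entpd1 and 1361 bases for Dpp4. These lengths match the mean over 11 and 6 annotated transcripts, short fragments included, while the longest annotated transcripts run to 4221 and 5268 bases. Multiples of these lengths would fit whole reads as well, and the length taken was chosen by nearness to an annotated or mean length. Per kilobase of the longest transcript, a scale chosen after seeing the data, Entpd1 averaged 49.9 RPKM (41.9 to 56.6) and overlapped with P2rx7 at 33.9 RPKM (20.3 to 59.0). Dpp4 came to 16.5 RPKM, beside Cd38 at 18.5 and Nt5e at 16.7 RPKM. Art2b, with whole reads at 870 bases, came to 2.29 RPKM and stayed last. Comparisons of 1 gene between libraries are not touched by the length.

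**Figure D2:**
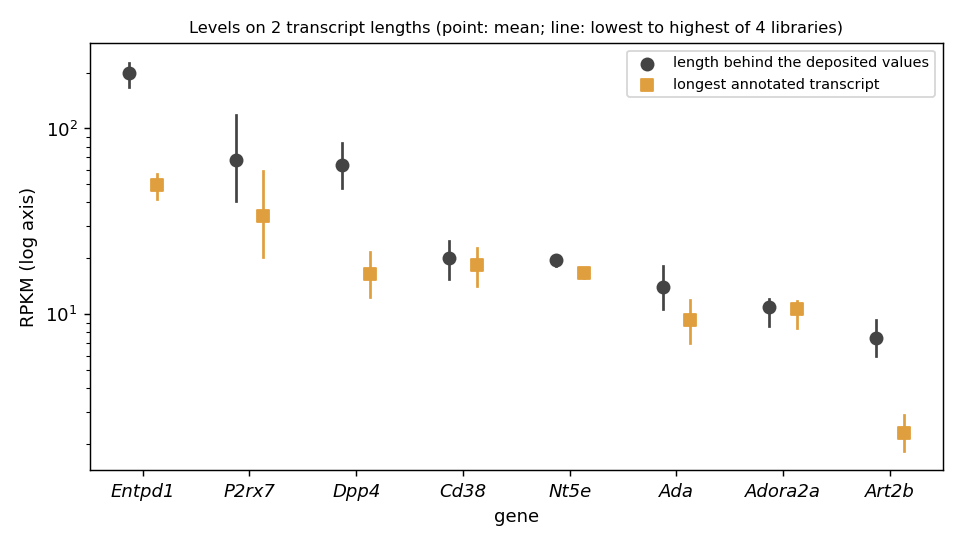
Mean RPKM (points) and lowest to highest of the 4 libraries (lines) on a log axis for each gene, at the length behind the deposited values and at the longest annotated transcript. Entpd1 moves from 199 to 49.9 RPKM and Dpp4 from 64.0 to 16.5 RPKM, whereas Adora2a hardly moves, from 11.0 to 10.7 RPKM.

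The knockout libraries were set against wild-type to ask whether these genes differ by OX40 genotype. No member passed the test. limma on log2(RPKM + 1) called 0 of 8 at an adjusted p under 0.05, as it called 0% of all 11625 genes, with 162 genes (1.39%) at an unadjusted p under 0.05. limma-voom on recovered reads also called 0, with 130 genes at an unadjusted p under 0.05. The median log2 change of the 8 was 0.12, beside -0.03 over all genes tested, with 6 members higher and 2 lower in the mean. The groups did not overlap for 3 members, Cd38 and Art2b (higher in knockout) and Nt5e (lower), where 26.4% of all genes showed groups without overlap. That count of 3 in 8 is near the background share, which divides into 8.66% higher and 17.8% lower. These shares were near even with TMM factors (12.4% higher and 12.8% lower), the median of ratios (12.2% and 12.9%) and GC correction (13% and 12.9%). Quantiles left them apart, though by less, at 10.7% higher and 15% lower.

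Among the members that consume NAD, Cd38 had the larger log2 change. It was at 15.5 and 17.7 RPKM in wild-type cells against 24.8 and 22.2 RPKM in knockout cells, from 1085 to 1658 reads. Both knockout libraries were above both wild-type libraries. Their exact 95% Poisson intervals, which cover counting error only, did not meet between genotypes. The highest wild-type bound was 18.7 and the lowest knockout bound 21.1 RPKM. Such intervals also parted within a genotype, as for P2rx7 in wild-type 1 (66.5 to 70.8 RPKM) and wild-type 2 (39.2 to 42.4 RPKM). The share of all genes with intervals apart was not counted. The knockout mean of Cd38 was 23.5 ± 1.81 RPKM against 16.6 ± 1.53 RPKM (SD, n = 2 each), with a log2 change of 0.48 (SE 0.13, 95% interval 0.13 to 0.82). Its unadjusted limma p was the only one under 0.05 in the set, and its limma adjusted p was 0.975. Without wild-type 1 and without wild-type 2 no member had an unadjusted limma p under 0.05, as against 77 and 76 of all 11625 genes. Without OX40-knockout 1 there were 2 members and 524 of all genes. Without OX40-knockout 2 there were 5 members, with Cd38 at a limma adjusted p of 0.0769, but 3832 of all genes had such a p in that fit. Over the 4 fits without 1 library the log2 change of Cd38 ran from 0.39 to 0.57.

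Art2b encodes the surface enzyme that tags P2X7 and other T cell proteins with ADP-ribose. It was at 6.73 and 5.98 RPKM in wild-type cells against 9.36 and 7.64 RPKM in knockout cells. The knockout libraries were again both higher, but these values rest on only 127 to 181 recovered reads, or on a multiple of them, which the ratios cannot settle. On 181 and fewer reads the Poisson intervals of wild-type 1 (5.65 to 7.97 RPKM) and OX40-knockout 2 (6.47 to 8.96 RPKM) overlapped. The log2 change was 0.36 (SE 0.16, 95% interval -0.06 to 0.79, limma adjusted p = 0.975).

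Their closest relatives in the pathway lists showed the same order of groups. Bst1, the other ADP-ribosyl cyclase gene and the neighbour of Cd38 with no protein-coding gene between them, was at 3.65 and 3.15 RPKM in wild-type cells against 4.84 and 5.39 RPKM in knockout cells. Its log2 change was 0.47 (SE 0.16, limma adjusted p = 0.975). Art2a-ps, a relative of Art2b that is named as a pseudogene, was at 4.15 and 3.82 against 5.08 and 5.46 RPKM. The log2 change of Art2a-ps was 0.33 (SE 0.15, limma adjusted p = 0.975). No source used here tells how reads were divided between Art2b and Art2a-ps, so both are uncertain and do not count as separate observations. These 4 genes kept both knockout libraries above both wild-type libraries with TMM factors, median-of-ratios factors, quantile normalization and GC correction. Of all genes tested, 12.4%, 12.2%, 10.7% and 13% had that order with these scalings, against 8.66% without. The scalings reuse the same 4 libraries and so add no further observation. In the list that holds Bst1, 1 tested gene stood higher without overlap and 2 (Acpp and Enpp4) lower. The group of 4 was put together after its values were seen.

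Among the 8 members the ATP-gated channel gene P2rx7 varied most between libraries, with the replicate 1 library the higher one in each genotype. It was at 68.7 and 40.8 RPKM in wild-type cells against 119 and 44.3 RPKM in knockout cells. Both replicate 1 libraries were above both replicate 2 libraries, an order met in 18.7% of all genes tested. The knockout libraries were 2.68-fold apart and the wild-type libraries 1.68-fold, on 2444 to 6471 reads. P2rx7 was the only member at least 2-fold apart between the knockout libraries on the log2(RPKM + 1) scale, where 4.97% of all genes were. Knockout exceeded wild-type 1.73-fold in replicate 1 and 1.09-fold in replicate 2, though no label pairs the same-numbered libraries. The log2 change of 0.45 had an SE of 0.52 and a 95% interval from -0.91 to 1.81 (limma adjusted p = 0.975), and without OX40-knockout 1 it was -0.25.

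By least distance in log2(RPKM + 1) deviations over the 4 libraries, the genes most like P2rx7 among 8569 candidates were Ston2 (0.13), St3gal2 (0.15) and Ccr4 (0.18). With 4 values a gene and that many candidates, near matches can be found for many patterns, and no reference distance was taken. Of all genes tested, 36.9% were highest in OX40-knockout 1. Ccr4, a chemokine receptor of T cells, was at 4.93 and 3.06 RPKM in wild-type cells against 11.0 and 3.35 RPKM in knockout cells. P2rx4, a second ATP-gated channel gene that is next to P2rx7 in the genome, was singled out after its values were seen. It was at 10.3 and 8.70 RPKM in wild-type cells against 20.4 and 8.62 RPKM in knockout cells, so that OX40-knockout 1 alone was high. The 5 NK cell markers ran the other way as a sum, at 233 and 354 RPKM in wild-type cells against 131 and 333 RPKM in knockout cells. Itga2 of that list did not, at 2.43 and 2.44 against 2.82 and 2.34 RPKM. Ncr1, which adds little to the sum, had the widest spread, at 0.41 and 7.93 against 0.18 and 7.49 RPKM. Cd4 reached 10.1 RPKM in OX40-knockout 1, against 0.82 to 2.06 RPKM elsewhere. Cd8a (16.6 against 9.03 to 10.45 RPKM) and Cd8b1 (4.44 against 2.00 to 3.37 RPKM) were also highest in that library. The part of these differences in the P2rx7 values was not tested. In bulk RNA, more cells that carry a transcript and more transcript per cell cannot be told apart.

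Dpp4, like P2rx7, stood higher in both replicate 1 libraries than in both replicate 2 libraries. It was at 71.2 and 52.7 RPKM in wild-type cells against 83.9 and 48.1 RPKM in knockout cells. OX40-knockout 1 was the highest library and OX40-knockout 2 the lowest, so the genotype groups overlapped. Its knockout libraries were 1.75-fold apart, and its log2 change was 0.05 (SE 0.31, 95% interval -0.75 to 0.85, limma adjusted p = 0.987). By deposited RPKM the other 3 dipeptidyl peptidases that passed the filter, all of them intracellular enzymes, lay lower. Fap of the same list did not pass, at 0.069 RPKM or less in every library. Dpp7 was between 5.19 and 6.45 RPKM, Dpp9 between 28.3 and 38.9 RPKM and Dpp8 between 30.1 and 35.3 RPKM. That order holds for the deposited lengths only. At its longest transcript Dpp4 came to 16.5 RPKM, and Dpp7, Dpp8 and Dpp9 were not read on that scale.

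**Figure D3:**
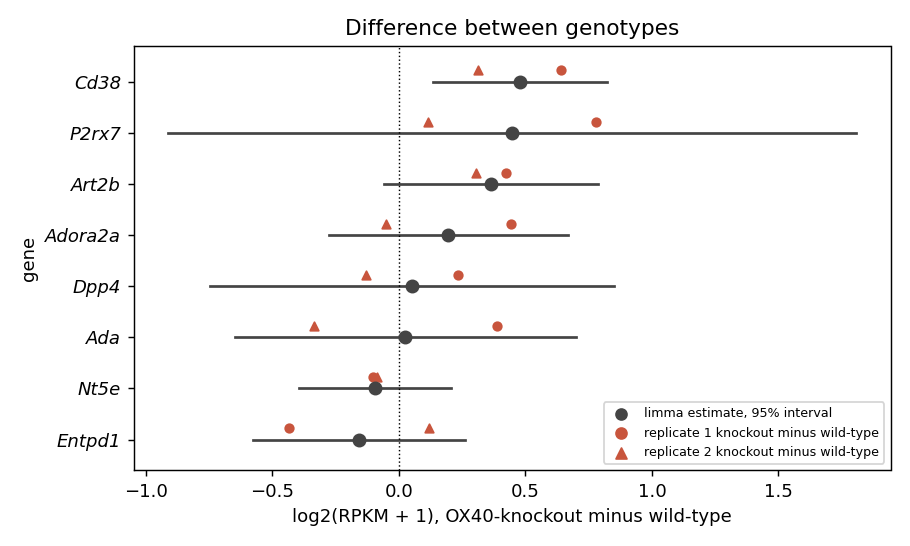
Difference in log2(RPKM + 1), OX40-knockout minus wild-type, for the 8 genes: dark points and lines give the limma estimate with its 95% interval. Red circles and triangles give the difference within replicate 1 and within replicate 2, by library number only, as no label pairs these libraries. The line of Cd38 lies above 0 before adjustment (0.13 to 0.82), that of P2rx7 runs from -0.91 to 1.81, and Ada, Entpd1, Adora2a and Dpp4 differ in opposite directions in the replicates.

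On the adenosine-making branch, Entpd1 and Nt5e showed small differences. Entpd1 was at 226 and 193 RPKM in wild-type cells against 167 and 210 RPKM in knockout cells. The groups overlapped, and OX40-knockout 1 was lowest, in contrast to 6 of the 8 members, which were highest there, where 36.9% of all genes were. The log2 change was -0.16 (SE 0.16, 95% interval -0.58 to 0.26, limma adjusted p = 0.975). Nt5e was the steadiest member, at 20.9 and 19.5 RPKM in wild-type cells against 19.4 and 18.3 RPKM in knockout cells. Its groups were separated by less than the counting error of wild-type 2 and OX40-knockout 1 and no longer separated with any of 4 other scalings. The log2 change was -0.09 (SE 0.12), with a 95% interval from -0.39 to 0.20 (limma adjusted p = 0.975).

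Adora2a, the receptor gene at the end of that branch, was at 8.62 and 11.8 RPKM in wild-type cells against 12.1 and 11.4 RPKM in knockout cells. Wild-type 1 was low and the other 3 had overlapping Poisson intervals. The log2 change was 0.20 (SE 0.18, 95% interval -0.28 to 0.67, limma adjusted p = 0.975) and -0.01 without wild-type 1. Ada, which removes adenosine, was at 13.6 and 13.7 RPKM in wild-type cells against 18.1 and 10.7 RPKM in knockout cells. The knockout libraries lay on either side of the wild-type ones, 1.70-fold apart, and the log2 change was 0.03 (SE 0.26, 95% interval -0.65 to 0.70, limma adjusted p = 0.990).

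The rest of the pathway was read from 10 lists with 81 genes, of which 80 were found by symbol (all but Pnp) and 52 passed the filter. None was called by limma, 1 (Bst1) had an unadjusted p under 0.05, and the median log2 change was -0.02. Groups did not overlap for 5 higher and 7 lower genes of the 52, again near the shares of all genes. Orders between genes of the lists are by deposited RPKM, with no other transcript length tried. Of the genes that let ATP out, Panx1 (a channel) was between 21.0 and 30.7 RPKM and Slc17a9 (the vesicular nucleotide transporter) between 41.7 and 48.4 RPKM. Among 14 further ATP and NAD hydrolases 7 passed the filter, with Acpp, a phosphatase that can cut AMP, highest at 21.9 to 31.9 RPKM, followed by Entpd6 (14.3 to 17.8 RPKM) and Entpd5 (up to 15.9 RPKM). Entpd2, Entpd3 and Entpd8, relatives of CD39 at the cell surface, were at 0.13 RPKM or less in every library.

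Among the other 14 P2 receptors, 6 were tested. P2ry14, a receptor for UDP-sugars, was at 47.6 and 52.0 RPKM in wild-type cells against 33.5 and 56.9 RPKM in knockout cells. P2rx3, a channel best known from sensory neurons, was at 16.7 and 31.4 against 18.4 and 60.1 RPKM and so was high in replicate 2 where P2rx7 was high in replicate 1. P2ry10, a lymphocyte receptor, was level at 29.6 to 31.6 RPKM. Of the other adenosine receptors Adora3 (5.55 to 6.82 RPKM) and Adora2b (4.03 to 5.72 RPKM) were low and Adora1 was listed at 0. The concentrative nucleoside transporter gene Slc28a2 (46.5 to 51.7 RPKM) and the equilibrative Slc29a1 (31.2 to 34.9 RPKM) varied little, and Slc29a3 of endosomal membranes was between 5.20 and 5.87 RPKM. In purine salvage, Ahcy, which splits S-adenosylhomocysteine into adenosine and homocysteine, was highest, at 196 and 184 RPKM in wild-type cells against 262 and 212 RPKM in knockout cells (limma adjusted p = 0.975). The salvage enzymes Hprt (113 to 149 RPKM) and Aprt (84.8 to 101 RPKM) came next. Nampt, the entry enzyme of NAD salvage, was up to 39.96 RPKM, below Nadk, the kinase that makes NADP, at 76.1 to 89.7 RPKM, and above Nadsyn1, which completes NAD, at 9.80 to 11.04 RPKM. All 12 cyclic AMP genes passed the filter, with Prkar1a, a regulatory subunit of protein kinase A, highest at 299.9 to 333 RPKM, then Pde3b, a phosphodiesterase, at 63.3 to 80.1 RPKM and Prkacb, a catalytic subunit of that kinase, at 68.2 to 75.3 RPKM.

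**Figure D4:**
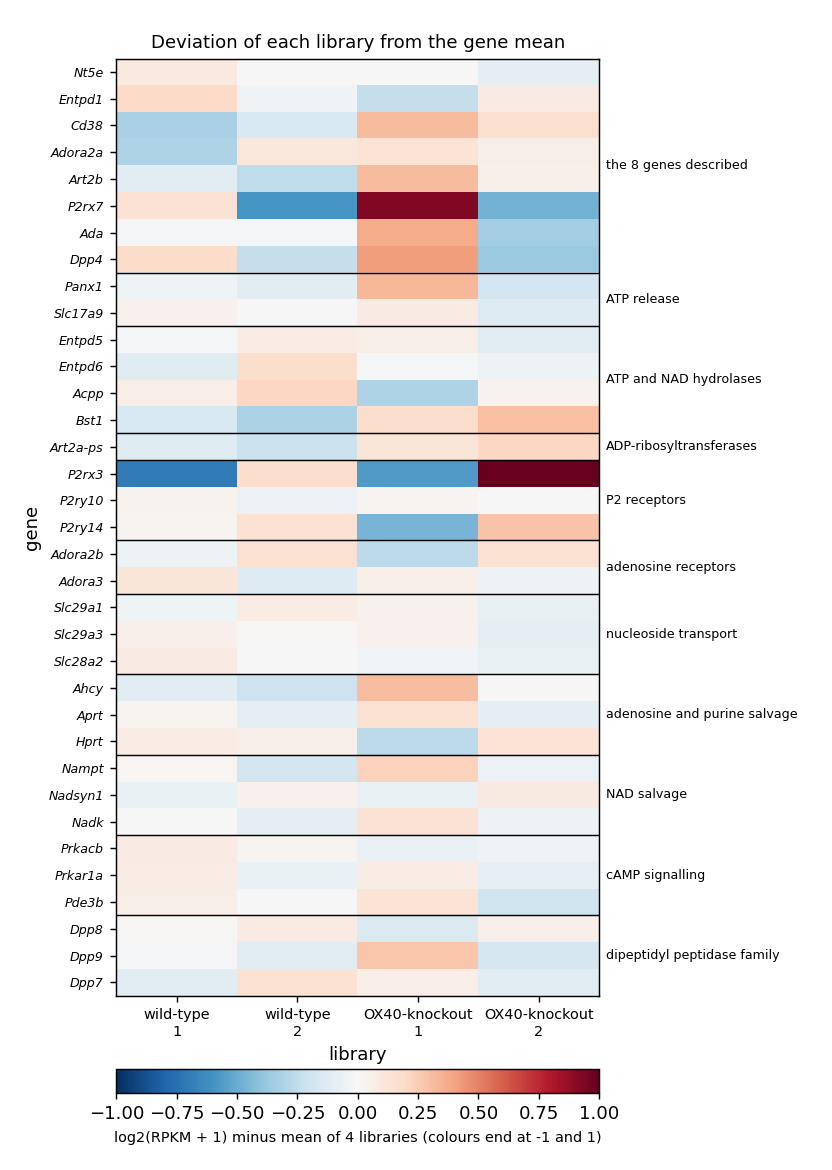
Deviation of each library (columns) from the gene's mean over the 4 libraries in log2(RPKM + 1), as colour, for the 8 genes and the named genes of the pathway lists (rows). P2rx7 is high in OX40-knockout 1 and P2rx3 in OX40-knockout 2, while Cd38, Art2b, Bst1 and Art2a-ps are higher in both knockout columns than in both wild-type columns.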

How the data were processed

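RNA was sequenced from 2 wild-type and 2 OX40-knockout DNT libraries, made with an Illumina TruSeq RNA kit per the labels' protocols. The authors deposited 1 table of RPKM values for 35275 genes. Its header names no unit, which was settled from the values. Bowtie 0.12.2 and the build mm8 are named, per the submitters' processing notes. No source used here gives the annotation, the counting tool or the handling of strand and of reads with several matches. Overlapping and antisense genes are therefore not separable. GENCODE vM21 names 34490 IDs and gave lengths and GC content. Library totals were taken from single-transcript genes, of which 83.8% held whole reads in all libraries at the annotated length (tolerance 0.02 read). Whole reads were found by ratios for 18738 of 20996 genes above 0 and approximated for 2258. Their sums are 103% of the totals, so the reads of some genes are too high or shared.

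log2(RPKM + 1) was tested with limma 3.58.1 in R 4.3.3 (empirical Bayes with a mean-variance trend, no block, Benjamini-Hochberg over the 11625 genes that averaged 1 RPKM or more). Python 3.11.15, scipy 1.17.1 and matplotlib 3.10.9 made intervals and figures. limma was also run on simulated reads in which no library stood apart. The libraries here differ from that setting, so the run does not tell how many true changes the test would miss. The members and lists were chosen with earlier results of these data known. Of each pathway list the 3 highest by mean RPKM and those with an unadjusted p under 0.05 are named, and the nearest 3 genes for a member with a range over 1 on the log2 scale. Alternatives were another pseudocount, filters, scalings, GC correction, a replicate block, limma-voom, no trend and leaving out each library. An exact permutation test of 2 against 2 libraries cannot reach 0.05 and was not used.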

Additional observations from a re-analysis of the deposited data

How the results depend on the processing

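No member and no pathway gene was called under any of the 15 alternatives. Over all genes limma called 0, but 1 with quantile normalization, 5 with the replicate block and 5 with the replicate block and GC correction, and between 0 and 1 when a library was left out. Same-numbered libraries deviated together over genes (correlation 0.47), but no label ties the numbers to an animal, day or culture, so the block is no main design. It left 2 members at an unadjusted p under 0.05, and 3 with GC correction. The log2 change of the members kept its direction in 114 of 120 fits. It turned only when a library was left out, for Entpd1 (between -0.32 and 0.0054), Adora2a (-0.0123 to 0.40), P2rx7 (-0.25 to 1.15), Ada (-0.33 to 0.38) and Dpp4 (-0.34 to 0.45), each of which then rests on 1 library in a group that is assumed to vary like the other. The cause was not tested. Of the 27 named pathway genes, 42 of 403 values turned direction, none of them called. Non-overlapping members went from 3 to 2 under each of 4 scalings. All genes at an unadjusted p under 0.05 went from 162 to 603 with no filter, 103 with a mean of at least 5 RPKM, 373 with the block, 496 with the block and GC correction, 77 and 76 without wild-type 1 and 2, and 524 and 3832 without OX40-knockout 1 and 2. The 2 libraries a group and 127 to 181 reads limit what Art2b can show.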

Other observations

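Some pathway genes were singled out here after their values were seen, and none passed the test. Groups without overlap were met in 8.66% of all genes tested as higher in knockout and in 17.8% as lower. The order of the genes named here was not checked under the other scalings. Nmnat3, an enzyme that makes NAD in mitochondria, was at 5.97 and 6.24 RPKM in wild-type cells against 4.93 and 4.85 RPKM in knockout cells, so that both knockout libraries were lower. Pde7a, which breaks down cyclic AMP, was lower in both as well, at 58.6 and 55.5 against 50.8 and 50.8 RPKM. Pde4b, another such phosphodiesterase, was at 24.5 and 21.2 RPKM in wild-type cells against 48.5 and 24.7 RPKM in knockout cells, with OX40-knockout 1 far above the rest. P2rx1, an ATP-gated channel gene, was low but ordered by genotype, at 0.84 and 1.14 against 2.20 and 1.57 RPKM.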
